A study of Arabidopsis thaliana with 6 samples.

Results

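The PYR/PYL genes of *Arabidopsis thaliana* encode the receptors of the plant hormone abscisic acid (ABA). The 10 genes *PYR1* and *PYL1* to *PYL9* were taken by their AGI identifiers from the 27444 protein-coding genes among 37899 nuclear genes of the RefSeq annotation, and each deposited peak whose summit lay from 2 kb upstream of the transcription start site (TSS) to the gene end was assigned to them. A summit is the position of highest enrichment within a peak. The annotation lists *PYL8* as *RCAR3* and *PYL9* as *RCAR1*.

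The study asked which genes are bound by the WIP zinc finger proteins TT1 (AtWIP1) and NTT (AtWIP2), 2 transcription factors with a narrow natural expression in seed coat and in the carpel and root. ChIP-seq with an antibody against GFP was made from 7-day-old seedlings of 2 Col-0 transgenic lines, *Dex:TT1-GFP* and *Dex:NTT-GFP*, both treated with 1 µM dexamethasone (Dex) for 8 h. In both lines the transgene is driven by a Dex-activated factor (LhGR) that is itself expressed from the 35S promoter, so expression of the fusion protein does not follow the natural promoter of either gene, and binding in the native tissue was not measured. Each library came from pooled seedlings. There is 1 ChIP library of TT1, so no TT1 value carries a replicate error, and there are 2 of NTT, called NTT-1 and NTT-2 after their replicate numbers, each ChIP with an input library that has no peak list of its own. The 3 lists held 12908 peaks (TT1), 16167 peaks (NTT-1) and 7447 peaks (NTT-2), with a median fold enrichment of 3.99, 5.9 and 3.94. Fold enrichment is the ratio over local background that the authors' peak caller gave for each summit. Read depth is not in the lists, so fold enrichments are set side by side, ranked within each library and not compared in size between libraries, and the absence of a peak means no detection at an unknown depth.

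PYR/PYL proteins are soluble receptors. Upon binding ABA, they close over the hormone and dock onto the clade A protein phosphatases 2C (PP2C), which are thereby inhibited. The SnRK2 kinases that these phosphatases keep inactive are then released and phosphorylate transcription factors such as ABI5 and the ABF proteins, as well as guard cell ion channels. The 10 receptors fall into 3 subfamilies: PYR1 with PYL1 to PYL3, PYL4 to PYL6, and PYL7 to PYL9. Most of the first group form dimers in the absence of ABA. The further receptors PYL10 to PYL13 were not placed among these subfamilies here. ABA closes stomata, delays germination and restrains seedling growth.

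Stretches are printed for some of the peaks that were strong in a library or carried one of the motifs searched. Not every peak with a motif has a printed stretch. All run 5′ to 3′ on the strand of the receptor gene and were read from the TAIR10.1 assembly. In the first group, capitals mark the following: for *PYL5* upstream (chr5:1608388-1608517, 600 to 471 bp before the TSS, holding the summits of all 3 libraries) a GAGA repeat, read on the other strand; for *PYL5* distal (chr5:1607468-1607548) 2 W-boxes in tandem; for *PYL6* distal (chr2:16848048-16848142, minus strand) the bases from the first to the last of 3 summits; for *PYL1* (chr5:18985664-18985744, minus strand) a W-box on the other strand; and for *PYL3* (chr1:27462520-27462566) 2 G-boxes.
PYL5 upstream: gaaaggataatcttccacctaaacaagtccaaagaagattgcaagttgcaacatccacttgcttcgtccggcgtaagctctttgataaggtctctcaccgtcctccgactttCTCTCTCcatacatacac
PYL5 distal: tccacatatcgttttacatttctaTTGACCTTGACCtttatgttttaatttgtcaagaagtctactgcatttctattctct
PYL6 distal: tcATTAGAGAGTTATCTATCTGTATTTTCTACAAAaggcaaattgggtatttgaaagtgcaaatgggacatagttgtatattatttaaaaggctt
PYL1 TT1 site: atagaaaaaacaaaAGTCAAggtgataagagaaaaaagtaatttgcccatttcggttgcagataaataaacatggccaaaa
PYL3 upstream: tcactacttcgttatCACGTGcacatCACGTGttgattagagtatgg

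The second group holds 30 bases around the GAGA repeat just past the TSS of 5 genes, in the 5′ untranslated region, with the repeat in capitals: *PYR1* (chr4:9928662-9928691), *PYL4* (chr2:16050044-16050073), *PYL6* (chr2:16845858-16845887, minus strand), *PYL8* (chr5:21560731-21560760) and *PYL9* (chr1:142105-142134). The *PYL9* repeat runs from 247 to 265 bp past the TSS, beyond the end of the printed stretch at 264 bp. Its capitals mark only the matches that lie wholly in the stretch.
PYR1 start: acgctaaataaaGAGAGAGAGAGtctaaaa
PYL4 start: taaaaactctatCTCTCTCaaatcgaaagg
PYL6 start: tttgttttcttaGAGAGAGccaagaatatt
PYL8 start: tcgtCTCTCTCTCTCTCTCtttctctttct
PYL9 start: cgaagaacgaaaGAGAGAGAGAGAGAGAGa

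Every one of the 10 receptor genes had a peak in at least 1 library. The share of all protein-coding genes with a peak in any library was not computed. It cannot be lower than the 44.7% of NTT-1 alone. TT1 peaks were found at 9 of 10 genes, all except *PYL9*. NTT-1 had peaks at 8 of 10 genes, all except *PYL1* and *PYL2*, and NTT-2 at 6 of 10. Both NTT libraries had peaks at *PYR1*, *PYL3*, *PYL4*, *PYL5*, *PYL6* and *PYL8*, and these same 6 genes had a TT1 peak as well. Of all 27444 protein-coding genes, 38.3% had a summit in the same window in TT1, 44.7% in NTT-1, 26.8% in NTT-2, 24.4% in both NTT libraries and 20.2% in all 3 libraries, so the receptor counts were above the genome-wide share in each library. Receptor genes are short, with a median window of 3415.5 bp against 4078 bp for all genes. Among the 9782 genes with a window as long as theirs (2986 to 4109 bp), a set chosen after the data had been seen, the shares were lower, at 35.1%, 41.5% and 24.2% for the single libraries and 18.0% for all 3. No test was made of these counts, since the genes were chosen with results of these libraries known. NTT-2 kept 3 of its 6 receptor genes, *PYL4*, *PYL5* and *PYL8*, when a −log10 q of 20 or more was required. The share of all protein-coding genes at that threshold was not computed. By −log10 q, an NTT-2 peak of 22.4 stood in the top 47.8% of the list and a peak of 19.1 in the top 62.7%. The threshold thus removed a large part of all NTT-2 peaks, not of receptor peaks alone.

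**Figure D1:**
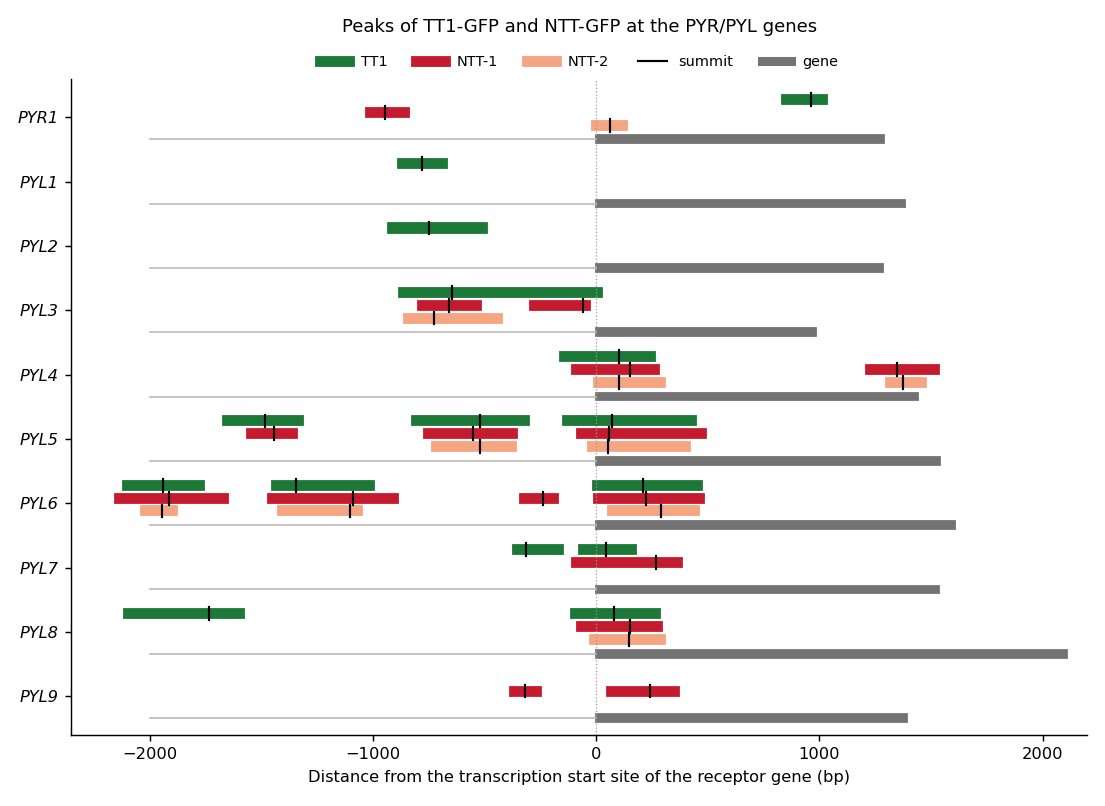
Peaks at the 10 receptor genes, each row a gene with its TSS at 0 and all genes drawn to run to the right. The horizontal axis gives the distance from the TSS in bp, bars are peaks of TT1 (green), NTT-1 (red) and NTT-2 (light orange), black ticks are summits, gray bars are the genes and thin gray lines the 2 kb upstream. Peaks of all 3 libraries stack just past the TSS at PYL4, PYL5, PYL6 and PYL8, whereas PYL1 and PYL2 have TT1 peaks alone and PYL9 has NTT-1 peaks alone.

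The receptor windows held 41 peaks, 15 of TT1, 16 of NTT-1 and 10 of NTT-2. Those of the 41 peaks that overlapped by at least 1 bp were joined, which left out peaks with a summit outside the windows, and gave 21 sites. Of these, 8 sites at 5 genes were found in all 3 libraries, 3 sites in 2 libraries and 10 sites in 1 library, of which 5 were of TT1, 4 of NTT-1 and 1 of NTT-2. In the 8 sites of all 3 libraries the summits of the strongest peak of each library lay 18 to 254 bp apart, with a median of 61 bp. The *PYL3* site also held a weaker NTT-1 summit 61 bp before the TSS, which is left out of these distances. By position, 22 of the 41 summits were upstream of the gene, 15 in the 5′ untranslated region, 3 in the 3′ untranslated region and 1 in coding sequence. For 32 of the 41 the receptor gene had the nearest TSS, and for 9 another gene did. Bound receptor genes carried 1.67 peaks on average in TT1, 2.0 in NTT-1 and 1.67 in NTT-2, against 1.36, 1.51 and 1.21 over all bound protein-coding genes.

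A summit from the TSS to 300 bp downstream, a window chosen after the positions had been seen, was found at 5 receptor genes in TT1 (*PYL4* to *PYL8*), 6 in NTT-1 (*PYL4* to *PYL9*) and 5 in NTT-2 (*PYR1*, *PYL4*, *PYL5*, *PYL6* and *PYL8*). The background was 11.3%, 18.0% and 9.86% of all protein-coding genes. *PYL4*, *PYL5*, *PYL6* and *PYL8* had such a summit in both NTT libraries (background 8.31%) and in all 3 libraries (background 5.11%). None of *PYL1*, *PYL2* and *PYL3* had a summit there in any library.

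*PYL5* (AT5G05440, chr5:1608988-1610527, plus strand), whose overexpression in Arabidopsis is known to heighten the ABA response, had the strongest receptor peak in each library. Its upstream site, printed above, had its summit 522 bp before the TSS in TT1, 550 bp in NTT-1 and 521 bp in NTT-2. Fold enrichment there was 6.77 in TT1, 15.7 in NTT-1 and 7.49 in NTT-2, with a −log10 q of 121, 183 and 68.8. By fold enrichment this peak ranked 774 of 12908 in TT1, 7 of 16167 in NTT-1 and 28 of 7447 in NTT-2. It thus stood in the top 6.0% of TT1 peaks, the top 0.0433% of NTT-1 peaks and the top 0.376% of NTT-2 peaks. The highest values of any peak were 10.5, 17.1 and 8.75 in the same order, so the *PYL5* peak was near the top in both NTT libraries and among many as strong or stronger in TT1.

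A further *PYL5* site lay in the 5′ untranslated region, with summits 70, 56 and 52 bp past the TSS in TT1, NTT-1 and NTT-2 and fold enrichments of 6.68, 11.7 and 4.76. In TT1 it was nearly as enriched as the upstream site, while in both NTT libraries the upstream site was the higher of the pair. The distal *PYL5* site was found in TT1 (1485 bp before the TSS, 3.1-fold) and in NTT-1 (1443 bp before, 7.39-fold) and not in NTT-2. It lies inside the long noncoding RNA gene AT5G05435, and the nearest TSS belongs to AT5G05430. The TT1 summit was 2 bp from the nearer of the 2 tandem W-boxes printed above and the NTT-1 summit 44 bp.

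**Figure D2:**
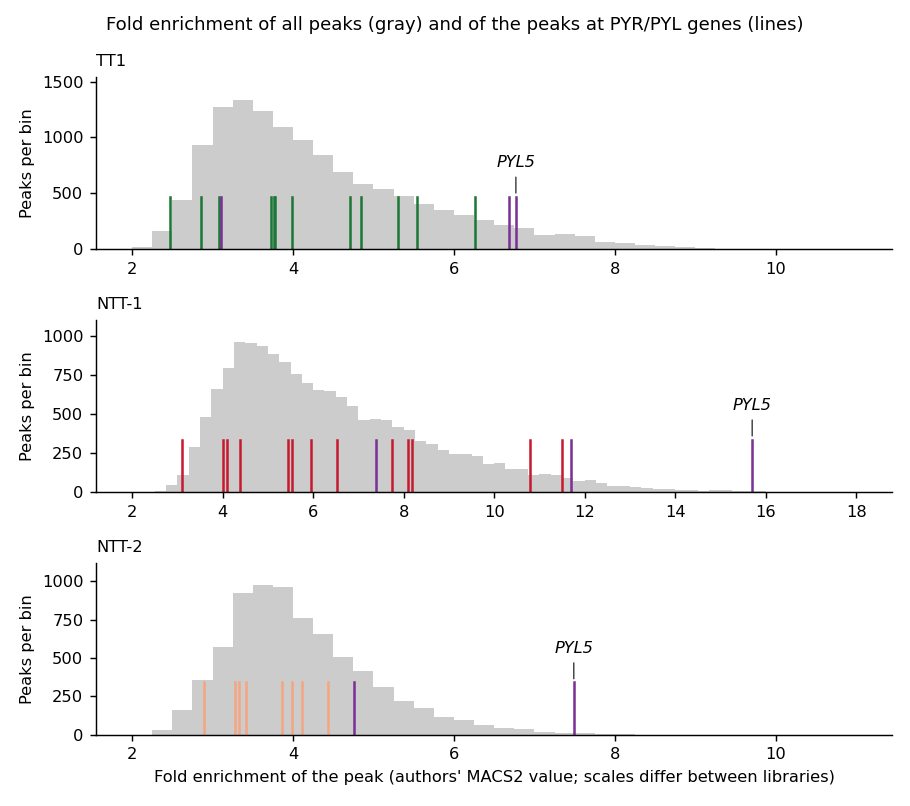
Fold enrichment of every peak (gray histogram, number of peaks per bin of fold enrichment) and of the peaks at receptor genes (vertical lines, PYL5 in purple) in the 3 libraries, each on its own axis. The strongest PYL5 peak, at 15.7 in NTT-1 and 7.49 in NTT-2, lies in the far right tail, and at 6.77 in TT1 it lies inside the right shoulder.

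*PYL6* (AT2G40330, chr2:16844588-16846194, minus strand), a receptor known in Arabidopsis to interact with the jasmonate regulator MYC2, had 3 sites shared by all libraries, more than any other receptor gene. The site in its 5′ untranslated region had summits at 211, 221 and 290 bp past the TSS and fold enrichments of 6.26 in TT1, 10.8 in NTT-1 and 3.28 in NTT-2. The middle site gave 3.78 in TT1, 8.1 in NTT-1 and 3.86 in NTT-2, and here the TT1 summit, 1343 bp before the TSS, stood apart from the NTT summits at 1089 and 1101 bp. The distal site, close to the edge of the window with summits 1938, 1914 and 1946 bp before the TSS, gave 3.76 in TT1, 11.5 in NTT-1 and 2.89 in NTT-2. It was the strongest *PYL6* peak in NTT-1 (top 3.38%) and the weakest in NTT-2 (top 95.1%), so the order of the *PYL6* sites differed between the NTT replicates. NTT-1 had a further peak 239 bp before the TSS (4.0-fold, top 90.2%) that was in no other library.

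*PYL4* (AT2G38310, chr2:16049918-16051356, plus strand), of the same subfamily, had a shared site in its 5′ untranslated region, with summits 101, 152 and 104 bp past the TSS and fold enrichments of 4.85 in TT1, 8.18 in NTT-1 and 3.99 in NTT-2. These ranked in the top 28.5%, 20.1% and 47.7% of peaks. Both NTT libraries had a peak in its 3′ untranslated region as well, 1345 and 1375 bp past the TSS, at 4.39 and 4.43-fold, and no TT1 summit was assigned there. A broad TT1 peak (4.96-fold) starts inside the same untranslated region and overlaps both NTT peaks. Its summit lies 984 bp past the gene end, so it was not counted and the site is listed for the NTT libraries alone. The nearest TSS to the NTT summits there is that of the long noncoding RNA gene AT2G08945. *PYL4*, *PYL5* and *PYL6* thus each had a summit just past the TSS in every library. That of *PYL6* in NTT-2 was weak (3.28-fold, top 83.6%, −log10 q of 19.1).

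*PYL8* (AT5G53160, chr5:21560601-21562709, plus strand), known for promoting lateral root growth under ABA, had 1 shared site, with summits 80, 151 and 148 bp past the TSS and fold enrichments of 4.71 in TT1, 5.95 in NTT-1 and 4.11 in NTT-2. These lay near the middle of each list (top 31.0%, 49.0% and 42.0%). A second TT1 peak, 1735 bp before the TSS (3.72-fold), lay in the long noncoding RNA gene AT5G07955, whose TSS was 117 bp away. The close relatives *PYL7* and *PYL9* had fewer peaks, none of them in NTT-2. *PYL7* (AT4G01026, chr4:446978-448511, plus strand) had weak TT1 peaks 43 bp past the TSS (2.85-fold, top 92.8%) and 313 bp before it (2.47-fold, top 98.9%, inside AT4G01023), and an NTT-1 peak that overlapped the first of these, with its summit in coding sequence 268 bp past the TSS (7.74-fold, top 24.4%). *PYL9* (AT1G01360, chr1:141870-143261, plus strand), which promotes leaf senescence when overexpressed in Arabidopsis, had peaks in NTT-1 alone, 240 bp past the TSS (5.45-fold) and 317 bp before it (4.1-fold).

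In the subfamily of *PYR1* and *PYL1* to *PYL3*, *PYR1* had the single summit just past a TSS. *PYR1* (AT4G17870, chr4:9928587-9929875, plus strand), the receptor first found through the synthetic agonist pyrabactin, had a peak in each library, but within its window these lay at 3 places that did not overlap. The TT1 summit lay 961 bp past the TSS in the 3′ untranslated region (3.08-fold, top 84.8%), the NTT-1 summit 947 bp before the TSS (5.54-fold, top 56.5%) and the NTT-2 summit 60 bp past it (3.33-fold, top 81.4%). The NTT-1 summit was nearer to the TSS of the long noncoding RNA gene AT4G06755. Of the 5548 protein-coding genes with a peak in all 3 libraries, 91.5% had at least 1 site common to all, and *PYR1* was the 1 of 6 receptor genes that did not. Just outside the window, however, peaks of all 3 libraries overlapped one another past the *PYR1* gene end, with summits 422, 237 and 545 bp beyond it and fold enrichments of 3.82 in TT1, 3.91 in NTT-1 and 4.17 in NTT-2.

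*PYL3* (AT1G73000, chr1:27462983-27463968, plus strand) had a shared upstream site, with fold enrichments of 5.31 in TT1, 6.53 in NTT-1 and 3.42 in NTT-2 and summits 644, 661 and 727 bp before the TSS. All 3 summits fell inside the divergent neighbour *BGAL17* (AT1G72990), a beta-galactosidase gene whose TSS was nearer, at 148, 165 and 231 bp. The TT1 peak was 907 bp wide and reached past the *PYL3* TSS. A separate NTT-1 summit 61 bp before the TSS was among the weakest of that library (3.11-fold, top 99.4%). The 2 G-boxes printed above start 448 and 437 bp before the *PYL3* TSS, inside both the TT1 and the NTT-2 peak and over 100 bp from every summit. They lie between the starts of *BGAL17* and *PYL3*, nearer to that of *BGAL17*.

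*PYL1* (AT5G46790, chr5:18983540-18984923, minus strand) and *PYL2* (AT2G26040, chr2:11094258-11095542, minus strand) each had a single peak, in TT1, with no NTT summit in the window. The *PYL1* summit was 781 bp before the TSS (3.99-fold, top 50.1%) and 24 bp from a W-box. The *PYL2* summit was 750 bp before the TSS (5.54-fold, top 17.3%) and had none of the 4 motifs within 100 bp. With 1 TT1 library, whether these are sites of TT1 rather than of NTT could not be tested.

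**Figure D3:**
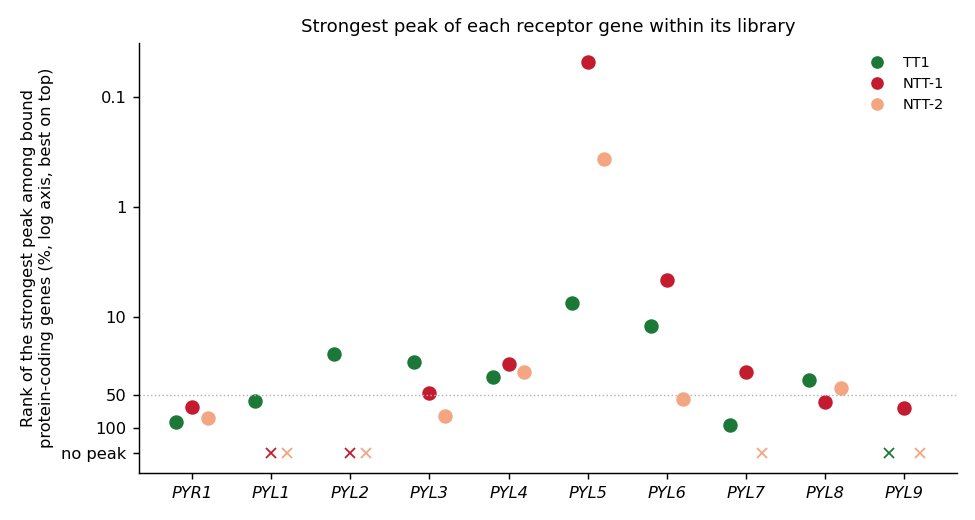
Rank of the strongest peak of each receptor gene among all protein-coding genes bound in the same library, in percent on a log axis with the best rank on top. Dots are green for TT1, red for NTT-1 and light orange for NTT-2, crosses mark genes without a peak and the dotted line is the middle rank. PYL5 ranked 6 of 12261 genes in NTT-1, 27 of 7355 in NTT-2 and 782 of 10518 in TT1, whereas PYR1 was below the middle in all 3.

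Over all bound receptor genes, peak strength was at or somewhat above that of bound genes in general. The median of the strongest peak per bound receptor gene was 4.85 in TT1, 7.14 in NTT-1 and 3.98 in NTT-2, against 4.22, 6.44 and 3.97 over all bound protein-coding genes. Above the genome-wide median were 6 of 9 receptor genes in TT1, 5 of 8 in NTT-1 and 3 of 6 in NTT-2.

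Of the 15 TT1 peaks at receptor genes, 10 overlapped a peak of NTT-1 by at least 1 bp, 8 a peak of NTT-2, 8 a peak of both and 5 a peak of neither. Over all 12908 TT1 peaks these shares were 74.3%, 41.5%, 39.0% and 23.2%. The 5 TT1 peaks that no NTT peak overlapped were those of *PYR1*, *PYL1* and *PYL2* and the upstream ones of *PYL7* and *PYL8*. When a −log10 q of 20 was required in every list, 14 TT1 peaks at receptor genes remained, and 4 overlapped a peak of both NTT libraries. The share of all TT1 peaks under that threshold was not computed.

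Both strands of the 201 bp centered on each summit were searched for 4 motifs: the W-box as TTGACC or TTGACT (the core bound by WRKY factors), the GAGA repeat as GAGAGAG, the ABRE core as ACGTG and the G-box as CACGTG, which holds an ABRE core. The GAGA repeat was found at 4 of 15 TT1 peaks, 5 of 16 NTT-1 peaks and 5 of 10 NTT-2 peaks at receptor genes, against 16.0%, 21.5% and 26.1% of all peaks. The W-box was found at 5 of 15, 1 of 16 and 1 of 10, against 31.8%, 28.1% and 27.2%. The ABRE core was found at 4 of 15, 2 of 16 and 1 of 10, against 29.0%, 25.5% and 35.1%. The G-box was at none of the 41 summits, against 9.91%, 7.37% and 15.5% of all peaks. These are matches of letters and not measured contacts, and several peaks share 1 stretch of sequence.

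The distance from a summit near the TSS to the nearest GAGA repeat varied among genes and libraries. At *PYL8* it was 25 bp in TT1, 6 bp in NTT-1 and 3 bp in NTT-2, and at *PYL4* it was 40, 11 and 37 bp. At *PYL9* it was 10 bp in NTT-1, and at *PYR1* it was 30 bp in NTT-2, whereas the *PYR1* summits of TT1 and NTT-1 lay elsewhere. *PYL6* has a repeat centered 114 bp past the TSS, 97 bp from the TT1 summit, and a separate one centered 322 bp past it, printed above, 32 bp from the NTT-2 summit, and its NTT-1 summit had no repeat within 100 bp. Neither *PYL7* summit near the TSS had one. The window from the TSS to 300 bp downstream held a GAGA repeat in 5 of the 10 receptor genes, *PYR1*, *PYL4*, *PYL6* (the repeat at 114 bp), *PYL8* and *PYL9*, and in 27.6% of all 27444 protein-coding genes. Among peaks with a summit in that window, 3 of 5 at receptor genes had the repeat within 100 bp in TT1, 3 of 6 in NTT-1 and 4 of 5 in NTT-2. Over all peaks so placed the shares were 36.9%, 44.2% and 45.7%, higher than over peaks at any place. The *PYL5* start site, the second strongest of that gene, had none of the 4 motifs within 100 bp of its summits, and at the *PYL5* upstream site the single repeat lay 36 to 65 bp from the summits.

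The other genes of the ABA pathway were taken from 6 lists with 33 genes, of which 19 had a summit in the window in TT1, 21 in NTT-1, 16 in NTT-2 and 15 in all 3. The 4 further receptor genes *PYL10* to *PYL13* had almost none, with a single peak at *PYL13* in NTT-1 (5.58-fold). Of the 9 clade A PP2C genes, whose products the receptors inhibit, 7 had a peak in TT1, 7 in NTT-1 and 6 in NTT-2. *ABI1* gave 6.19 in TT1, 12.5 in NTT-1 and 4.84 in NTT-2, and *PP2CA* gave 6.73, 7.63 and 3.29. Of the 3 SnRK2 kinase genes of the ABA-activated subclass, 1 was bound in all 3 libraries, *SNRK2.3* (5.42, 7.57 and 2.98), and no peak was assigned to *SNRK2.2* or *OST1*.

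Of the 5 genes of the bZIP factors at the end of the pathway, 3 had a peak in TT1, 4 in NTT-1 and 3 in NTT-2, among them *ABI5* (6.93, 8.5 and 4.27) and *ABF3* (3.98, 7.26 and 3.77). Of 8 ABA synthesis genes, 5, 5 and 4 had a peak. *NCED3*, which encodes a 9-cis-epoxycarotenoid dioxygenase of the rate-limiting step, gave 4.74, 7.63 and 5.5, and *ABA2*, a later enzyme, 3.9, 9.47 and 4.46. Of the 4 CYP707A genes, whose products degrade ABA, 3, 3 and 2 had a peak, with *CYP707A1* at 6.78, 10.7 and 4.06 and *CYP707A3* at 7.5, 7.17 and 4.28. These counts are a description of short lists, to be read beside the shares of all protein-coding genes given above, and the lists were not tested against one another.

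**Figure D4:**
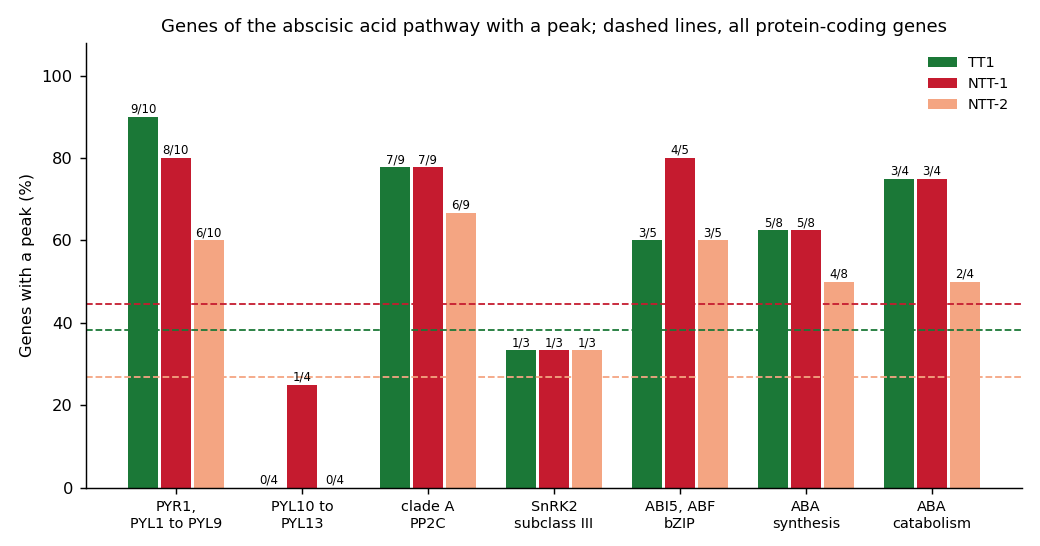
Percentage of genes with a summit from 2 kb upstream of the TSS to the gene end in the receptor set and in 6 other lists of ABA genes, with the number of genes with a peak over the number in the list above each bar. Dashed lines give the share of all protein-coding genes in the same library (38.3% TT1, 44.7% NTT-1, 26.8% NTT-2). The receptor bars, at 9, 8 and 6 of 10 genes, stand above their lines, and PYL10 to PYL13 stand below theirs.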

How the data were processed

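ChIP-seq peaks of 1 *Dex:TT1-GFP* and 2 *Dex:NTT-GFP* libraries were analysed, grouped by the sample labels. Per the labels and the methods, the authors mapped reads to TAIR10 with BWA, handled them with SAMtools and Picard after FastQC, and called peaks per library with MACS2 2.1.2. Other versions are not given in the sources used here. Replicates were not pooled. In the deposited lists the score was made by the authors from the q-value, the fold enrichment is the authors' ratio over local background, and the −log10 values of p and q are the authors' deposited values for the summit. Depth is unknown, so no intervals were computed, and the peak calling could affect which weak sites are listed.

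Gene models were from RefSeq for TAIR10.1, whose nuclear coordinates are those of TAIR10. No peak (0) passed a chromosome end. Peaks were placed, ranked and searched for motifs with Python 3.11.15, numpy 2.4.6 and pandas 2.3.3, and the placement was tested on simulated peaks. Sites were peaks overlapping by at least 1 bp. Alternatives covered the window, the q threshold, list length, overlap rule and motif window. Named genes were the 10 receptors, in each other list up to 2 genes with peaks in every library, taken by their average rank by fold enrichment, and genes at or nearest to a receptor summit. *PYL13*, *SNRK2.2* and *OST1* were named after their values were seen. The members and lists were chosen with earlier results of these data known, so that no tests were made. The sequence under 1 receptor peak is not reported here.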

Additional observations from a re-analysis of the deposited data

How the results depend on the processing

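Of 60 recounts of receptor genes with a peak, 53 stayed within 1.5 times the reported count. Counts exactly at that limit are among the 53. When peaks were given to the nearest TSS alone, the genes of both NTT libraries fell from 6 to 4. Those of all 3 libraries fell from 6 to 4 as well, with *PYR1* and *PYL3* lost. The share of all protein-coding genes was not computed for the other windows, thresholds and list lengths. Those recounts therefore show only how the receptor counts change. With −1500 to +150 bp around the TSS, the interval that the paper kept for its peak annotation, NTT-1 had 5 genes and all 3 libraries shared 3. With a −log10 q of at least 20, 3 genes remained in NTT-2, in both NTT libraries and in all 3 libraries, and 4 TT1 peaks were shared with NTT-2 and 4 with both. With lists of equal length (7447 peaks), 1 gene had no peak. Leaving out either NTT library gave 6 to 8 genes for NTT, 6 to 7 for TT1 with NTT, 0 to 1 without a peak, 8 to 10 shared TT1 peaks and, just past the TSS, 5 to 6 genes for NTT and 4 to 5 with TT1. With other motif windows, 13 of 24 recounts differed by more than 1.5 times or went to or from 0, and some of the rest changed by less. Within 50 bp of the summit, a W-box was at 2 TT1 peaks and an ABRE core at 2, against 16.6% and 16.9% of all TT1 peaks. In NTT-1 a GAGA repeat was at 3 peaks and an ABRE core at 1, against 16.2% and 13.8%. In NTT-2 0 peaks had a W-box and 0 an ABRE core, against 13.9% and 22.0%. Over whole peaks, W-boxes were at 10, 5 and 2 peaks and G-boxes at 4, 2 and 2 in TT1, NTT-1 and NTT-2, and the ABRE core at 2 in NTT-2. Of all whole peaks, 49.2%, 37.1% and 30.8% held a W-box, 15.9%, 10.2% and 17.8% a G-box, and 38.2% an ABRE core in NTT-2. The whole-peak counts are not like for like, since receptor peaks were wider. Their median widths were 430, 353.5 and 357 bp in TT1, NTT-1 and NTT-2, against 343, 251 and 209 bp over all peaks. Narrower windows can only lose matches. The cause of the other changes was not tested. No paired analysis was possible because TT1 has 1 library. Ranked by −log10 q in place of fold enrichment, the best rank of a gene shifted by up to 14.8 percentage points of the list (*PYL8* in NTT-1, from the top 49.0% to 34.2%). At *PYL4* and *PYL6* in NTT-2 a different peak of the gene then ranked best. The *PYL5* peak was 494 in TT1, 9 in NTT-1 and 23 in NTT-2.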

Other observations

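Several peaks lay within 1 kb outside the receptor windows and were not counted. Past the 3′ end of *PYL5* were a TT1 peak at 312 bp (6.55-fold, top 7.42%), NTT-1 peaks at 280 bp (9.87-fold, top 8.88%) and 652 bp (5.82-fold), and an NTT-2 peak at 646 bp (4.01-fold). *PYL2*, without an NTT peak in its window, had an NTT-2 peak 945 bp past its end (4.56-fold, top 25.7%). *PYL1* had a TT1 peak 616 bp past its end (2.85-fold, top 92.5%). The window edge fell between the *PYL6* distal summits, 1914 to 1946 bp before the TSS and counted, and an NTT-1 summit 2057 bp before the TSS of *PYR1* (5.76-fold), not counted.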
